A study of Rattus norvegicus with 10 samples.

Results

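The genes described here encode isoforms of actin, troponin and tropomyosin, the proteins that make up the thin filament of muscle. They were chosen by name: Acta1, Actc1, Acta2, Tnnt2, Tnni3, Tnni1, Tnnc1, Tnnt1, Tpm1 and Tpm2. A probe set, the group of oligonucleotides that measures one transcript on the array, was a member when its only gene symbol in the platform annotation was one of these 10. The rule gave 18 of the 31042 probe sets, which measured 9 of the 10 genes, out of 14217 named genes on the array. Actc1, cardiac alpha-actin, had no probe set of its own. Another 5 probe sets were annotated to both Acta2 and Actc1, and they are described beside the members without being counted among them.

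Inbred male Fischer-344 rats, fed standard chow, gave hearts that were compared at 6 months (adult, titled Young, 5 arrays, replicate numbers 1, 2, 3, 4 and 6) and at 24 months (aged, titled Old, 5 arrays, replicate numbers 2, 3, 4, 5 and 6). No treatment or genetic change was given to either group. RNA was measured on the Affymetrix Rat Genome 230 2.0 array, in a series designed around mitochondrial metabolism. The sample protocols name the whole heart and the series text names ventricles, and the labels do not state that every array stands for its own animal. The p-values therefore describe only how these arrays spread, which may be technical.

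In the thin filament, actin monomers form a double strand, tropomyosin lies along it, and the troponin complex sits at intervals on tropomyosin. Troponin C binds calcium, troponin I holds the filament in its inhibited state, and troponin T ties the complex to tropomyosin. Each protein exists in several isoforms: the adult heart muscle cell relies on cardiac alpha-actin, cardiac troponin I (Tnni3), cardiac troponin T (Tnnt2), slow and cardiac troponin C (Tnnc1) and alpha-tropomyosin (Tpm1). Skeletal alpha-actin (Acta1), slow skeletal troponin I (Tnni1) and beta-tropomyosin (Tpm2) are better known from skeletal muscle or the fetal heart, slow skeletal troponin T (Tnnt1) from slow skeletal muscle, and Acta2 from smooth muscle.

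Between the ages, the mean log2 differences of the thin-filament genes ran from -0.15 to 0.34. Of the 9 genes measured, Tnnt1 alone passed the test and rose, by 0.16 ± 0.05 on the log2 scale (SE, limma, adjusted p = 0.0421), or 11.8%. This call lay at the edge of the threshold and was lost in 9 of 10 fits that left out an array. By gene, 11.9% of all 14217 genes passed the same test, 6.77% higher and 5.09% lower in aged hearts, so 1 of 9 is near the background. By probe set, 1 of the 18 passed, a Tpm1 probe set that fell by 35.5%, against 8.03% of all probe sets (4.42% higher, 3.6% lower). Among the members, the isoforms known from skeletal, fetal or smooth muscle (Acta1, Acta2, Tnni1, Tnnt1 and Tpm2) had aged means above the adult means. Tnnt2, Tnni3 and Tpm1 had aged means below the adult means, with Tnnc1 nearly level. Of all these genes only Tnnt1 was called, and the Tpm2 difference came from 1 of its probe sets. Relative to Tnnt2 on the same array, Tnnt1 was higher on all 5 aged arrays than on any adult array. This follows from the values of the 2 genes, which each separated the ages in opposite directions. Relative to Tpm1, Tpm2 had a higher mean at 24 months, with aged array 2 inside the adult range and a call that was lost in 6 of 10 tests that left out an array.

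All values here are log2 values as the authors deposited them, each relative to the median of its probe set over the 10 arrays, so absolute levels cannot be read from them. A gene value is the mean of the gene's probe sets. Differences are aged minus adult, the test was limma over all genes or all probe sets with Benjamini-Hochberg adjustment, and rose or fell is used where the adjusted p was under 0.05. The array medians lay between -0.0097 and 0.0093. The values carry a numerical step from which 3 approximate brightness classes were inferred: of the 18 probe sets, 8 were in the bright class, 9 in the middle class and 1 in the dim class, whereas 11.4%, 72.7% and 15.9% of all probe sets were. Each of the 10 cardiomyocyte marker genes had a bright probe set. The number of arrays limits the precision.

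**Figure D1:**
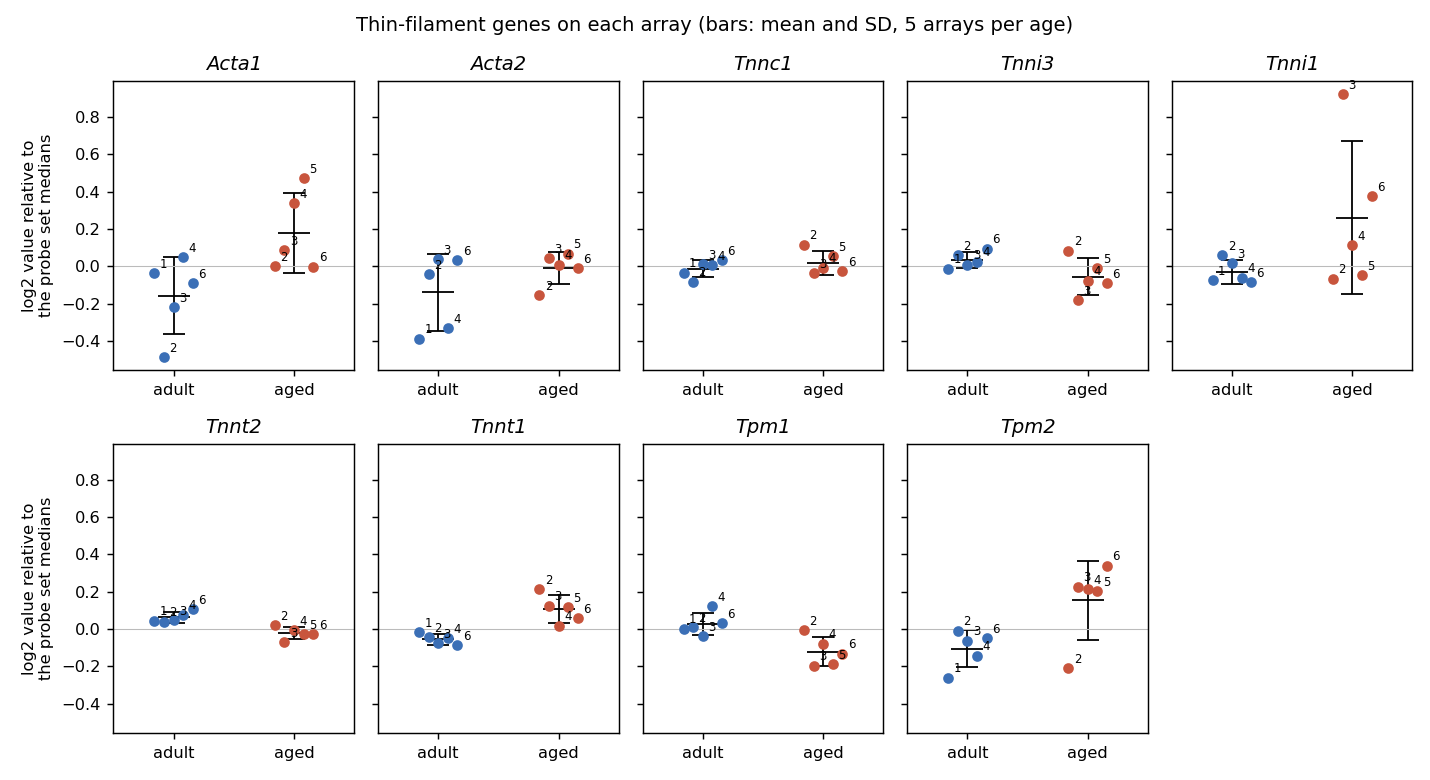
Values of the 9 genes on every array: the vertical axis is the log2 value relative to the probe set medians, points are arrays labelled with their replicate number, and bars are mean and SD of 5 arrays per age. The aged points of Tnnt1 all lie above the adult points, those of Tnnt2 all lie below them, and the 5 aged Tnni1 points spread from -0.06 to 0.92.

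The promoters of 4 members are shown because these genes stand for the classes compared here: skeletal alpha-actin, smooth muscle actin, slow skeletal troponin T and cardiac troponin T. Each line is the 250 bases before the transcription start in RefSeq, assembly GRCr8, read 5' to 3' on the gene's strand. Capitals mark matches to the CArG box (10 bases: CC, exactly 6 bases that are each A or T, then GG, bound by serum response factor), MCAT (CATTCC, bound by TEAD factors) and TATAAA, each searched on both strands.
Acta1 promoter, chr19:68784195-68784444, minus strand: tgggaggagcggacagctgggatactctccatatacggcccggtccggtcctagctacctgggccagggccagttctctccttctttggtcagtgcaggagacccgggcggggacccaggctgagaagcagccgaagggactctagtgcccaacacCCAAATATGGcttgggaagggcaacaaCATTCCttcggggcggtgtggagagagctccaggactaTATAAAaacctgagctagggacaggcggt
Acta2 promoter, chr1:241172504-241172753, minus strand: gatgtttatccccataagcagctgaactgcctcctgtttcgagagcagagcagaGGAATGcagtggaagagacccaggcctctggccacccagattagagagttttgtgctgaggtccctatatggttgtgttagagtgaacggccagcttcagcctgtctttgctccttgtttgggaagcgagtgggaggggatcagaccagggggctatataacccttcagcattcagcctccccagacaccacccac
Tnnt1 promoter, chr1:78348785-78349034, plus strand: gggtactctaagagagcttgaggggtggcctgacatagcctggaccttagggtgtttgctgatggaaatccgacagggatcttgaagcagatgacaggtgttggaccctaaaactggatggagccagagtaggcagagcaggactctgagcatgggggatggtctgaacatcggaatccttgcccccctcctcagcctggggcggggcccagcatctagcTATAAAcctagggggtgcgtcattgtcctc
Tnnt2 promoter, chr13:49818873-49819122, plus strand, first listed start: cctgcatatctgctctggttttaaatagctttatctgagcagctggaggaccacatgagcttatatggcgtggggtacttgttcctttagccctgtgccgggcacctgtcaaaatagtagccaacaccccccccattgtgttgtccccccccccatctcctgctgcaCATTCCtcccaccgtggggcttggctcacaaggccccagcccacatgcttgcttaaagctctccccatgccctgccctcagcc

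The window of Acta1 held all 3 motifs without overlap: CCAAATATGG at bases 94 to 85 before the start, CATTCC at 67 to 62 and TATAAA at 29 to 24. An exact match to the CArG box as defined above was found for 1 of the 9 members with a listed window, Acta1. These 9 include Actc1 and not Tnnc1. Of all 33469 windows of this length, 1.50% held such a match. Sequences of the same length with an inner C or G were not counted. Examples are CCCTATATGG and CCTTGTTTGG in the Acta2 window and CCCTATATGG in the Actc1 window. The count therefore does not show that the Acta2 or Actc1 promoter lacks a CArG box. MCAT was found for 4 of the 9 (Acta1, Acta2, Tnnt2 and Tpm1), compared with 12.1% of windows. The Acta2 match lay on the reverse strand at 196 to 191, and the Tnnt2 match at 83 to 78. TATAAA was found for 2 of the 9, Acta1 and Tnnt1, compared with 12.9% of windows, and the Tnnt1 match lay at 30 to 25. These are matches of letters, not measured binding sites. In the same assembly Tnni3 and Tnnt1 are neighbours on chromosome 1 with 0 genes between them, and Tnnt2 and Tnni1 lie on chromosome 13 with 1 gene, Lad1, between them.

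Acta1 encodes skeletal alpha-actin, which the rodent heart makes around birth and less of later. Its single probe set, in the bright class, read -0.04, -0.49, -0.22, 0.05 and -0.09 on adult arrays 1, 2, 3, 4 and 6, and 0.00, 0.09, 0.34, 0.47 and 0.00 on aged arrays 2, 3, 4, 5 and 6. Aged arrays 3, 4 and 5 were above the highest adult array, and adult array 2 was the lowest of the 10. The difference was 0.34 ± 0.11 (95% interval 0.09 to 0.58, 26.2%), the largest mean difference among the 9 genes, and it did not pass the adjusted test (adjusted p = 0.0760). With array weights, which called 2239 of all genes instead of 1686, it passed (0.40, adjusted p = 0.0275). Its within-age SD, 0.211, was higher than that of 93.9% of genes.

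Acta2 encodes smooth muscle alpha-actin, abundant in vessel walls and in activated fibroblasts. The probe set for Acta2 alone, in the middle class, ranged from -0.39 to 0.04 on adult arrays and from -0.15 to 0.07 on aged arrays. The groups overlapped, adult arrays 1 and 4 being the low ones. The difference was 0.13 ± 0.09 (95% interval -0.06 to 0.32, adjusted p = 0.402). In RNA of a whole organ, fewer cells of a type and less RNA per cell cannot be told apart.

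The 5 probe sets annotated to both Acta2 and Actc1 had lower aged than adult means, and 3 of them fell, against 3.6% of all probe sets. They share an annotation, so the 3 calls are not counted as separate results. Probe set 1374353_x_at, in the bright class, read 0.24, 0.11, 0.30, 0.34 and 0.04 on adult arrays 1, 2, 3, 4 and 6. It read -0.30, -0.73, -0.07, -0.36 and -0.04 on aged arrays 2, 3, 4, 5 and 6. All 5 aged values were below all 5 adult values, aged array 3 being the lowest, and the difference was -0.50 ± 0.11 (95% interval -0.75 to -0.26, adjusted p = 0.0175), so that it fell by 29.4%. The suffix x marks a probe set with oligonucleotides that may also bind other sequences.

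Probe set 1374352_at, also bright, fell by 0.44 on the log2 scale (SE 0.12, adjusted p = 0.0433), and 1385797_at, in the middle class, fell by 0.61 (SE 0.17, adjusted p = 0.0463). In 1385797_at the aged values were -0.70, -1.05, -0.12, -0.46 and 0.08, and the adult values ran from -0.02 to 0.32. Aged array 6 thus lay inside the adult range in 1385797_at, and the same array, at 0.03, lay inside it in 1374352_at. The remaining probe sets of the pair, 1370856_at (bright) and 1381861_x_at (middle), differed by -0.10 (95% interval -0.22 to 0.02, adjusted p = 0.318) and -0.12 (95% interval -0.24 to 0.01, adjusted p = 0.256). Which of the actins these 5 probe sets measured cannot be read from the annotation, and their difference from the Acta2 probe set was not tested. The call of 1374353_x_at was kept in 9 of 10 fits that left out an array (lost without adult array 3, adjusted p = 0.0520), and the calls of 1374352_at and 1385797_at in 2 of 10 each, those without aged array 4 or aged array 6.

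**Figure D2:**
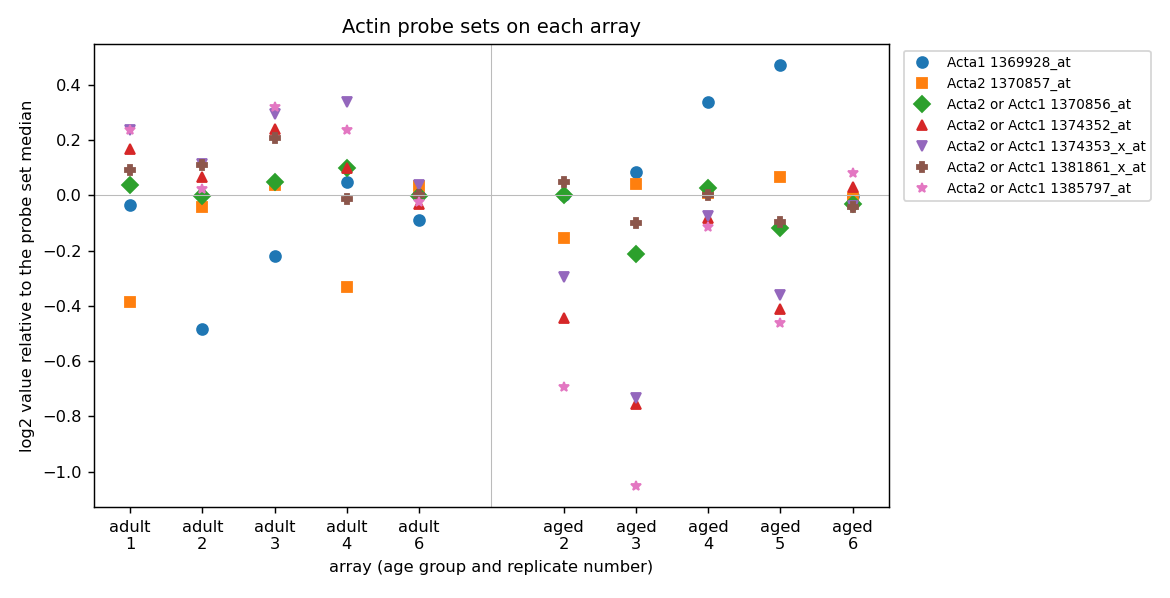
Actin probe sets on each array: the vertical axis is the log2 value relative to the probe set median, the horizontal axis lists the 5 adult and 5 aged arrays, and each symbol is a probe set. Aged array 3 holds the lowest values of the 3 shared probe sets that fell, down to -1.05, whereas the Acta1 probe set reaches 0.34 and 0.47 on aged arrays 4 and 5.

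Tnnc1, the calcium-binding troponin C of heart and slow skeletal muscle, had the smallest difference of the 9 genes. Its probe set, in the bright class, ranged from -0.08 to 0.03 in adult and from -0.04 to 0.12 in aged hearts. The difference was 0.03 ± 0.05 (95% interval -0.07 to 0.13, adjusted p = 0.716).

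Tnni3, cardiac troponin I, replaces the slow skeletal isoform Tnni1 in the heart after birth. The Tnni3 probe set, in the bright class, ranged from -0.01 to 0.09 in adult and from -0.18 to 0.09 in aged hearts. The difference was -0.09 ± 0.05 (95% interval -0.21 to 0.03, adjusted p = 0.320). Aged array 3 was the lowest of the 10, aged arrays 3, 4 and 6 lay below the adult range, and aged arrays 2 and 5 lay inside it.

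Tnni1 read -0.07, 0.06, 0.02, -0.06 and -0.08 on adult arrays 1, 2, 3, 4 and 6, and -0.06, 0.92, 0.11, -0.05 and 0.38 on aged arrays 2, 3, 4, 5 and 6. The adult arrays were tight, with an SD of 0.06, and the aged arrays spread widely, with an SD of 0.41. Aged arrays 3, 4 and 6 lay above the highest adult array, and aged arrays 2 and 5 lay inside the adult range. The difference, 0.29 ± 0.15 (95% interval -0.04 to 0.62), did not pass the test (adjusted p = 0.262). Both Tnni1 probe sets had their highest values on aged arrays 3 and 6: 1.20 and 0.58 in 1371339_at (bright, difference 0.35, adjusted p = 0.327), and 0.64 and 0.17 in 1386873_at (middle, difference 0.23, adjusted p = 0.274). The same 2 arrays had the highest scores of the lymphocyte marker list, 0.40 and 0.34, over a range of -0.23 to 0.07 on the other 8. The endothelial marker score was also highest on these arrays, 0.31 and 0.30, with aged array 2 close at 0.29. Without both arrays the Tnni1 difference was 0.03 (limma, adjusted p = 0.829). They held the highest Tnni1 values, so leaving them out had to lower the difference and says nothing of its source. The part of lymphocyte or endothelial content in it was not tested.

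Tnnt2, cardiac troponin T, read 0.04, 0.04, 0.05, 0.08 and 0.11 on adult arrays 1, 2, 3, 4 and 6, and 0.02, -0.07, -0.01, -0.03 and -0.03 on aged arrays 2, 3, 4, 5 and 6. Every aged value was below every adult value, and the difference was small at -0.08 ± 0.04 (95% interval -0.17 to 0.00, adjusted p = 0.200). The within-age SD of this mean of 2 probe sets, 0.0310, was among the lowest of all genes, at percentile 0.394. Genes differ in the number of probe sets averaged. Each Tnnt2 probe set alone spread more in adult hearts, with SDs of 0.068 and 0.060, against 0.028 for their mean. The bright probe set, 1367592_at, differed by -0.04 (adjusted p = 0.676), and the dim one, 1390061_at, by -0.13 (adjusted p = 0.140) with no overlap of the ages.

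Tnnt1, slow skeletal troponin T, was the member gene that rose. Its single probe set, 1370412_at, in the middle class, read -0.02, -0.04, -0.08, -0.05 and -0.09 on adult arrays 1, 2, 3, 4 and 6. On aged arrays 2, 3, 4, 5 and 6 it read 0.21, 0.13, 0.02, 0.12 and 0.06. All 5 aged values were above all 5 adult values, aged array 2 being the highest. The difference was 0.16 ± 0.05 (95% interval 0.06 to 0.26, adjusted p = 0.0421). In the separate limma fit over all probe sets, which has its own spread estimate, the same values gave an adjusted p of 0.0682. The unadjusted p was 0.0068 there and 0.0045 in the gene fit. In the gene fit, the call was lost in 9 of 10 fits that left out an array (adjusted p from 0.0549 to 0.0943) and kept without aged array 4 (adjusted p = 0.0341), so it lay at the edge of the threshold while the difference stayed between 0.13 and 0.18.

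Gene values of Tnnt1 and Tnnt2, the isoforms of troponin T, thus did not overlap between the ages, in opposite directions. For Tnnt2 this held for the mean of its probe sets and for the dim 1390061_at. In the bright 1367592_at the ages overlapped, at -0.01 to 0.16 in adult and -0.05 to 0.04 in aged hearts. Across all genes, 9.91% had ages that did not overlap, against 2 of these 9. Outside the members, the genes whose values followed Tnnt1 most closely over the 10 arrays were Zfp729 (Pearson r = 0.971), Mphosph10 (r = 0.958) and Rpl13a (r = 0.946), given as a description of arrays that share the age difference.

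Tpm1 encodes alpha-tropomyosin, the main tropomyosin of the rodent heart, and is spliced into striated muscle, smooth muscle and other forms. The mean of its 7 probe sets read 0.00, 0.01, -0.04, 0.12 and 0.03 on adult arrays 1, 2, 3, 4 and 6, and -0.01, -0.20, -0.08, -0.19 and -0.13 on aged arrays 2, 3, 4, 5 and 6. Aged arrays 3 to 6 lay below the lowest adult array, and aged array 2 lay inside the adult range. The difference of -0.15 ± 0.05 (95% interval -0.26 to -0.03) did not pass the test (adjusted p = 0.0859). It passed without aged array 2 (-0.17, adjusted p = 0.0406), which held the highest aged value, so that this omission had to widen the difference.

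The 7 Tpm1 probe sets differed among themselves, 2 having a higher and 5 a lower aged mean. Probe set 1395794_at, in the middle class, read 0.03, 0.42, -0.03, 0.42 and 0.08 on adult arrays 1, 2, 3, 4 and 6. It read 0.07, -0.48, -0.55, -0.78 and -0.51 on aged arrays 2, 3, 4, 5 and 6. Aged arrays 3 to 6 lay far below the adult range and aged array 2 lay within it. It fell by 0.63 on the log2 scale (SE 0.14, 95% interval -0.93 to -0.33, adjusted p = 0.0151), a call kept in all 10 fits that left out 1 array and lost without aged arrays 3 and 6 together (-0.60, adjusted p = 0.0674).

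Probe set 1370287_a_at had a higher aged mean, and its suffix a marks several transcripts of a gene. Its adult values were -0.11, -0.31, -0.28, -0.05 and -0.01 and its aged values 0.26, 0.04, 0.02, 0.01 and 0.15. The ages did not overlap, and the difference was 0.25 ± 0.07 (95% interval 0.09 to 0.41, adjusted p = 0.0543). It passed with array weights (adjusted p = 0.0454), which called 3397 of all probe sets instead of 2492. It also passed without adult array 6 (adjusted p = 0.0446), which held the highest adult value, so that this omission had to raise the difference.

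Probe set 1370288_a_at, in the bright class, had a lower aged mean: its adult values ran from 0.01 to 0.21 and its aged values from -0.66 to -0.01. These ages did not overlap either, with a difference of -0.30 ± 0.11 (95% interval -0.53 to -0.07, adjusted p = 0.106). Among all probe sets 7.32% did not overlap, and among the 18 members 4 did not: 1370412_at of Tnnt1, 1390061_at of Tnnt2, and these 2 of Tpm1. The other 4 Tpm1 probe sets differed by -0.21 (1371240_at), -0.09 (1371241_x_at), -0.09 (1368724_a_at) and 0.06 (1370513_at), with adjusted p from 0.147 to 0.682. Which spliced form each probe set measures was not analysed here.

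**Figure D3:**
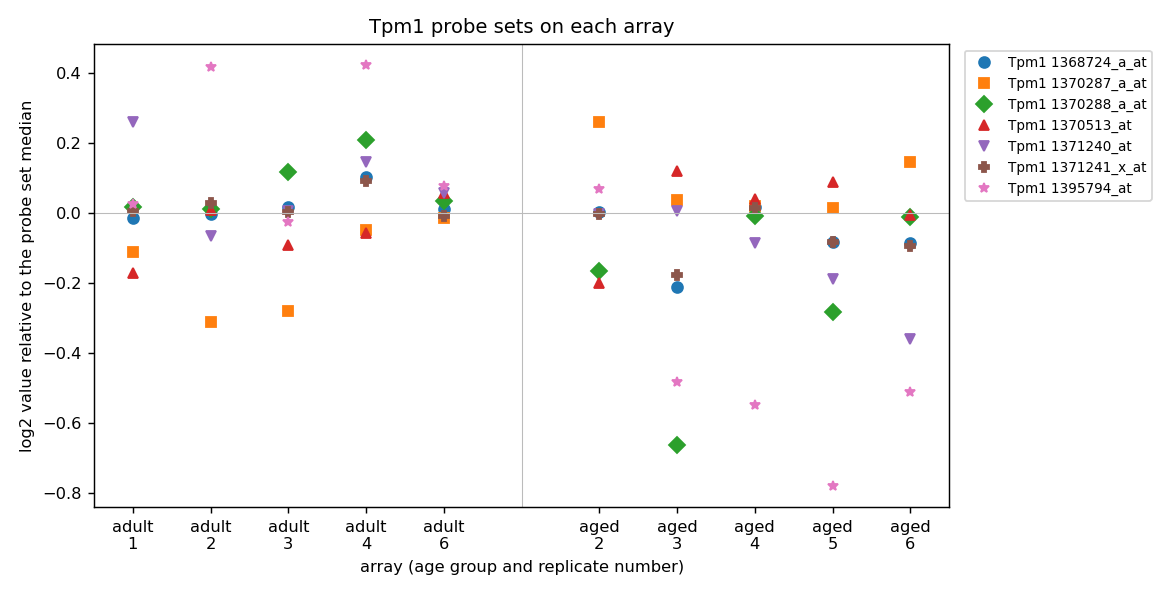
The 7 Tpm1 probe sets on each array: the vertical axis is the log2 value relative to the probe set median, the horizontal axis lists the 5 adult and 5 aged arrays, and each symbol is a probe set. Probe set 1395794_at drops to between -0.48 and -0.78 on aged arrays 3 to 6, whereas 1370287_a_at lies at 0.01 or higher on every aged array.

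Tpm2 encodes beta-tropomyosin, found in skeletal and smooth muscle and in the fetal heart. Its mean read -0.26, -0.01, -0.06, -0.14 and -0.05 on adult arrays 1, 2, 3, 4 and 6, and -0.21, 0.23, 0.21, 0.20 and 0.34 on aged arrays 2, 3, 4, 5 and 6. Aged arrays 3 to 6 were above every adult array, and aged array 2 was at the adult low end. The difference was 0.26 ± 0.09 (95% interval 0.06 to 0.46, 19.7%, adjusted p = 0.0882), and it passed without aged array 2 (0.35, adjusted p = 0.0041) and with array weights (0.27, adjusted p = 0.0416). Aged array 2 held the lowest aged value, so leaving it out had to raise the difference and is no further evidence.

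The Tpm2 difference came from 1 of its probe sets. Probe set 1372219_at read -0.41, 0.12, -0.21, -0.28 and -0.12 on adult arrays and -0.31, 0.59, 0.35, 0.41 and 0.60 on aged arrays, in the same order. Its difference was 0.51 ± 0.15 (95% interval 0.18 to 0.84, adjusted p = 0.0609). The second, 1392976_at, differed by 0.01 ± 0.06 (95% interval -0.13 to 0.15, adjusted p = 0.957). Both were in the middle class.

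**Figure D4:**
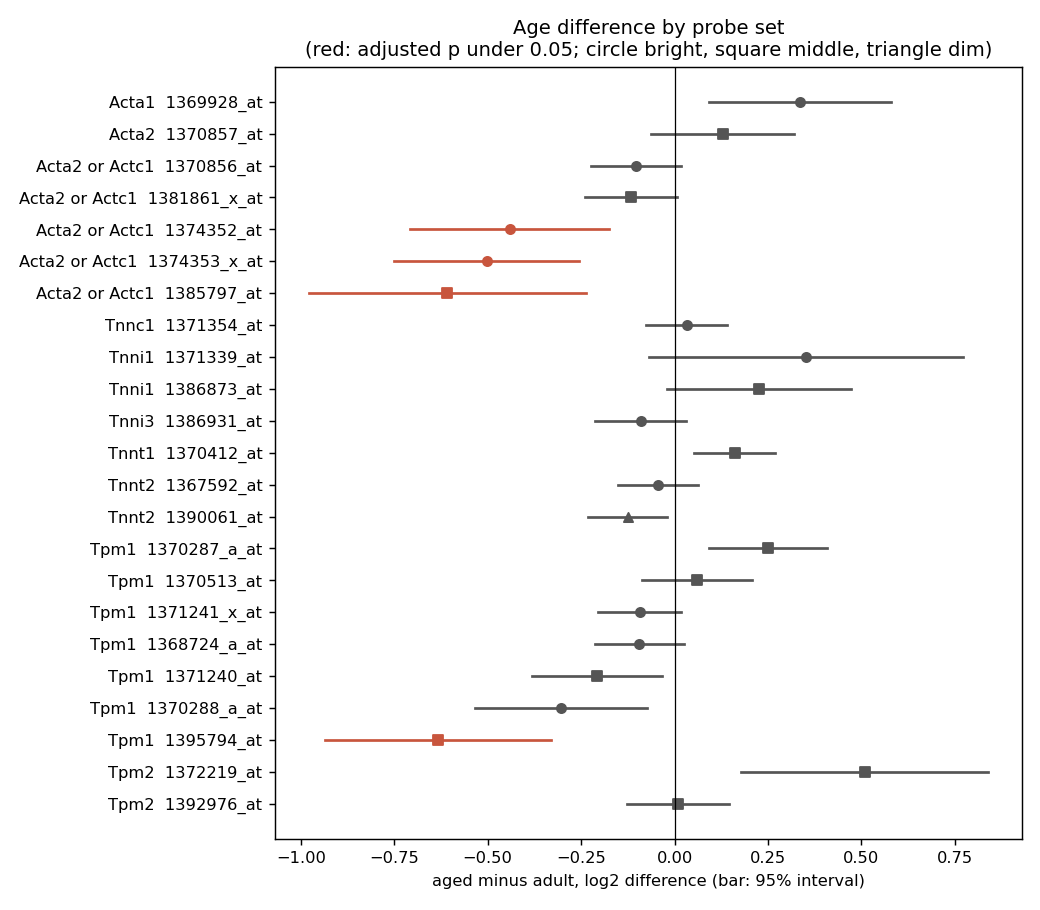
Age difference of each member probe set and of the 5 shared actin probe sets: the horizontal axis is the aged minus adult log2 difference, bars are 95% intervals, symbols give the inferred brightness class, and red marks an adjusted p under 0.05. The 4 red entries, Tpm1 1395794_at and 3 shared actin probe sets, all lie to the left of 0.

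Isoforms of a family were then compared within each array, as the log2 value of the isoform known from skeletal or fetal muscle minus that of the adult cardiac isoform, which does not depend on scaling between arrays. These are differences of relative values, so a value above 0 does not mean that an isoform is the more abundant. The exact two-sided permutation test over arrays was adjusted over the 3 pairs that could be formed. The smallest p that 5 arrays against 5 allow is 0.00794.

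Tnnt1 minus Tnnt2 read -0.06, -0.08, -0.13, -0.13 and -0.19 on adult arrays and 0.19, 0.19, 0.02, 0.14 and 0.09 on aged arrays, in the order used above. All 5 aged arrays were above all 5 adult arrays, and the means differed by 0.25, or 1.19-fold (exact permutation p = 0.00794, the smallest possible, adjusted p = 0.0238). Tnnt1 and Tnnt2 each separated the ages already, in opposite directions, so their difference had to separate them too. This p was therefore fixed by the results of the 2 genes and is no further evidence. The difference of Tnnt1 alone was 0.16 and that of Tnnt2 alone -0.08.

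Tpm2 minus Tpm1 read -0.26, -0.02, -0.03, -0.27 and -0.08 on adult arrays and -0.20, 0.42, 0.29, 0.39 and 0.47 on aged arrays. Aged arrays 3 to 6 were above every adult array, and aged array 2 lay within the adult range. The means differed by 0.41, or 1.32-fold (exact permutation p = 0.0317, adjusted p = 0.0476). Tpm1 here is the mean of 7 probe sets with age differences from -0.63 to 0.25, whose spliced forms were not analysed. The pair is therefore not a contrast with the cardiac form alone. Of the Tpm2 probe sets, 1372219_at differed by 0.51 and 1392976_at by 0.01. Leaving out 1 array ended the call in 6 of 10 cases: adult array 1 or 4 (adjusted exact permutation p = 0.0595), aged array 3, 4 or 6 (0.0833) or aged array 5 (0.0556), with differences from 0.36 to 0.40.

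Tnni1 minus Tnni3 read -0.06, 0.00, 0.01, -0.09 and -0.18 on adult arrays and -0.15, 1.10, 0.19, -0.04 and 0.47 on aged arrays. Aged arrays 3, 4 and 6 were above the adult range, and aged arrays 2 and 5 were inside it. The means differed by 0.38, or 1.30-fold, and the pair did not pass (exact permutation p = 0.119, adjusted p = 0.119). It passed without aged array 2 (0.49, adjusted exact permutation p = 0.0238), and without aged arrays 3 and 6 together the difference was 0.07 (adjusted exact permutation p = 0.50). Aged array 2 held the lowest aged value of the pair and aged arrays 3 and 6 the highest, so each omission had to move the difference.

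**Figure D5:**
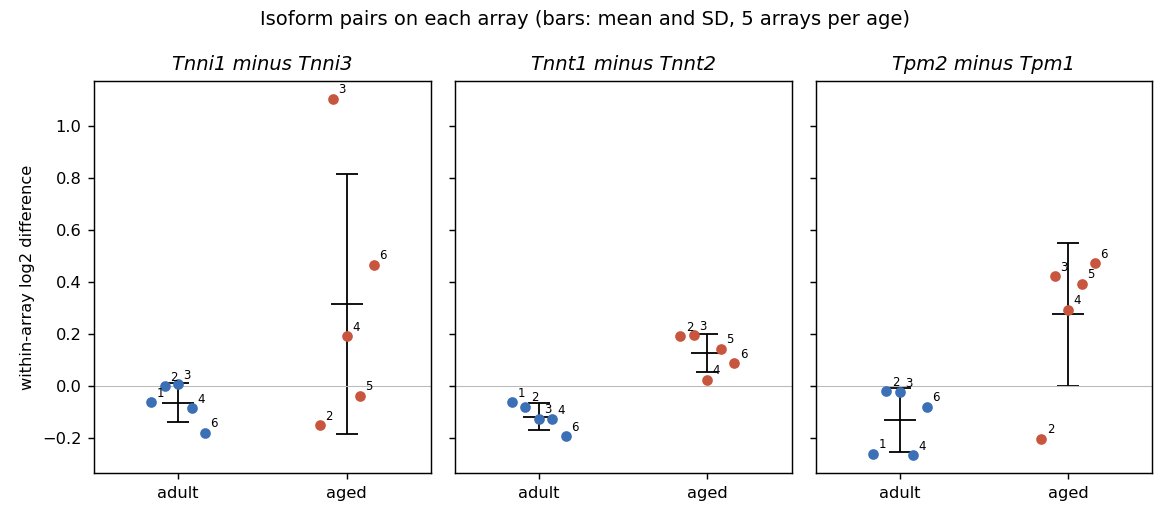
The 3 isoform pairs on each array: the vertical axis is the within-array log2 difference of the 2 genes, points are arrays labelled with their replicate number, and bars are mean and SD of 5 arrays per age. For Tnnt1 minus Tnnt2 the ages are apart; for Tpm2 minus Tpm1 aged array 2, at -0.20, lies among the adult arrays; and for Tnni1 minus Tnni3 aged array 3, at 1.10, is the highest.

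Across the 9 genes the median difference was 0.13, compared with -0.01 over all genes, and the median absolute difference was 0.15, compared with 0.08. At an unadjusted p under 0.05 (limma), 4 of the 9 genes counted (Acta1, Tnnt1, Tpm1 and Tpm2), as did 26.3% of all genes. The cardiac isoforms Tnnt2, Tnni3 and Tnnc1, the mean of the Tpm1 probe sets and the slow skeletal Tnnt1 had within-age SDs from 0.0310 to 0.0761, under the all-gene median of 0.102. Acta1, Acta2, Tnni1 and Tpm2 had SDs from 0.158 to 0.293, above it.

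Other isoforms of the same families gave 0 calls among 7 measured of 8 listed (limma, with 2 at an unadjusted p under 0.05). The closest was Actg1, cytoplasmic gamma-actin, at 0.21 ± 0.07 (adjusted p = 0.0905). Aged means were higher for 5 of the 7 and lower for 2. The lower ones were Actg2, also in the smooth muscle marker list, at -0.07 and Tnnc2, also in the skeletal muscle list, at -0.06. Of 20 measured of 23 listed genes for assembly and capping of the thin filament, 2 rose and 1 fell, with a median of 0.06. Lmod2, a leiomodin that lengthens thin filaments, rose by 0.37 ± 0.08 (adjusted p = 0.0090). Twf1, a twinfilin that binds actin monomers, rose by 0.21 ± 0.05 (adjusted p = 0.0211), and Cap2, which turns over actin, fell by 0.20 on the log2 scale (SE 0.06, adjusted p = 0.0366).

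Thick-filament and titin-associated genes were compared next. Of 9 measured of 10 listed, 1 rose and 3 fell, with a median of -0.14: Myh7, the beta heavy chain of myosin, rose by 0.76 ± 0.16 (adjusted p = 0.0114), and Myh6, the alpha heavy chain, fell by 1.24 on the log2 scale (SE 0.16, adjusted p = 0.0012). Mylk3, the cardiac myosin light chain kinase, fell by 0.29 (SE 0.07, adjusted p = 0.0225), and Myom1, of the M-band, fell by 0.44 (SE 0.11, adjusted p = 0.0231). Among regulators of muscle genes, 2 of 14 measured of 15 listed fell and 0 rose, with a median of -0.09: Fhl2, a cofactor of the heart, fell by 0.46 (SE 0.05, adjusted p = 0.0010) and Mef2a, a transcription factor of muscle, by 0.22 (SE 0.06, adjusted p = 0.0306).

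Marker genes of other cell types also differed with age, and their part in the member differences was not tested. Scores are the mean over a list of each gene's value relative to its mean over the 10 arrays. Fibroblast markers (5 of 9 rose, 0 fell) scored -0.52 to -0.04 in adult and 0.03 to 0.53 in aged hearts. The 4 of smallest p were Dpt at 0.70 (adjusted p = 0.0027), Postn at 2.26 (0.0027), Lum at 0.68 (0.0130) and Dcn at 0.31 (0.0237). Macrophage markers (4 of 8 rose, 0 fell) scored -0.62 to -0.11 and -0.09 to 1.01, and those that rose were Cd163 at 0.84 (adjusted p = 0.0059), C1qa at 0.86 (0.0100), Mrc1 at 1.04 (0.0270) and Lyz2 at 0.83 (0.0356). Endothelial markers (2 of 5 measured rose, 0 fell) scored -0.21 to -0.06 and -0.07 to 0.31, and those that rose were Tek at 0.35 (adjusted p = 0.0170) and Vwf at 0.94 (0.0231).

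Atrial markers (2 of 6 measured rose, 0 fell) scored -0.70 to -0.22 in adult and 0.19 to 0.59 in aged hearts, led by Nppa at 2.69 ± 0.38 (adjusted p = 0.0018) and Myl7 at 1.45 ± 0.37 (adjusted p = 0.0261). Myl7 is known mainly from the atria, and whether the tissue held atria is not settled by the labels. Cardiomyocyte markers (4 of 10 fell, 0 rose) had a median of -0.13, and those that fell were Actn2 at -0.46 (adjusted p = 0.0075), Ryr2 at -0.55 (0.0079), Atp2a2 at -0.34 (0.0251) and Ldb3 at -0.29 (0.0255). The other way went 2 of the 10, with higher aged means that did not pass by limma: Tcap at 0.22 (adjusted p = 0.208) and Csrp3 at 0.21 (0.0647). Smooth muscle markers, the cell type in which Acta2 and Tpm2 are abundant, scored -0.10 to 0.19 in adult and -0.16 to 0.08 in aged hearts (1 of 7 fell, Smtn at -0.26 ± 0.05, adjusted p = 0.0086, and 0 rose). Skeletal muscle markers scored -0.03 to 0.05 at both ages, with 0 of 7 measured called by limma and 1 at an unadjusted p under 0.05 (Myh4, -0.12, adjusted p = 0.179). Pericyte markers scored -0.03 to 0.01 in adult and -0.05 to 0.07 in aged hearts, with a median of 0.01. Of the 5, 1 rose by limma, Cspg4 at 0.22 ± 0.06 (adjusted p = 0.0283), and 0 fell. Aged means were lower for 2 of them, Abcc9 at -0.17 (adjusted p = 0.0901) and Kcnj8 at -0.04 (adjusted p = 0.671). Lymphocyte markers had 0 of 8 called by limma, with 2 at an unadjusted p under 0.05 (Nkg7 was the closest at 1.11, adjusted p = 0.0551).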

How the data were processed

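The table that the authors deposited gives log2 values, 1 per array for 31042 probe sets and 10 arrays. The labels leave the base of the logarithm unstated; it was taken from the size of the rounding step. How the scans were turned into values (software, background correction, normalization) is not given in the sources used here. Per the labels' protocols, total RNA was taken up with TRIzol and amplified over 2 cycles. Medians per probe set were 0 within 1e-06, so no absolute level remained. The step also placed each probe set in a dim (2 to 4 before centring), middle (4 to 8) or bright class, which is approximate.

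Names came from the platform annotation, and symbols were brought up to date by gene identifier with RefSeq genes of assembly GRCr8 (20826 had 1 symbol, 436 several and 9780 none, and 20758 matched). Values of the 14217 genes are means over probe sets. The ages were tested in R 4.3.3 by limma 3.58.1, with lmFit and eBayes and without covariates, over all genes (prior degrees of freedom 4.36) and all probe sets (5.09), with Benjamini-Hochberg adjustment at 0.05. The methods were tested on simulated data. Isoform pairs were compared by exact permutation. Of 5 planned pairs, the 2 with Actc1 could not be formed. Each array counted as 1 sample. The highest correlation between arrays was 0.570, so no array repeated the values of another. Whether the arrays came from separate animals cannot be told from it, as values are centred on probe set medians. Python 3.11.15, numpy 2.4.6, pandas 2.3.3 and matplotlib 3.10.9 were used for tables and plots.

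All members and their probe sets were described. Of each other list, up to 4 members past the threshold with the smallest p were named, or the 1 with the smallest p where none passed. Beside the called member gene, the 3 genes of highest correlation were named. Members, lists and tests were chosen with earlier results of these data known. Quantile normalization, median centring, array weights, robust eBayes, other summaries of probe sets, omission of dim probe sets, omission of arrays and a replicate block were tried.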

Additional observations from a re-analysis of the deposited data

Results flagged for a closer look

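In 70 groups of 5 arrays, 1 for each age of each gene, probe set and isoform pair, an array standing apart from the other 4 by Dixon's test was found 5 times. Chance alone marks about 1 in 20 groups. Aged replicate 2 stood apart 3 times, all in results that share the same probe set: in Tpm2 it read -0.21 with the other aged arrays between 0.20 and 0.34. In the Tpm2 probe set 1372219_at it read -0.31 with the others between 0.35 and 0.60. In the pair Tpm2 minus Tpm1 it read -0.20 with the others between 0.29 and 0.47. In the Tpm1 probe set 1368724_a_at, adult replicate 4 read 0.10 with the other adult arrays between -0.02 and 0.02. In the Tnni1 probe set 1371339_at, adult replicate 2 read 0.13 with the others between -0.05 and 0.00.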

How the results depend on the processing

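Over all genes, 1686 were called. Array weights gave 2239, leaving out 1 array 988 to 1994, leaving out aged arrays 3 and 6 together 1012, and the replicate block 1069. Over all probe sets, 2492 were called, and the same settings gave 3397, 1481 to 2943, 1526 and 1640. Of the 9 member genes, 1 was called; array weights gave 3 (Acta1, Tnnt1 and Tpm2), leaving out 1 array 0 to 2, leaving out aged arrays 3 and 6 together 0, and the replicate block 0. At an unadjusted limma p under 0.05 there were 4 or 5 of 9 in each omission of 1 array that gave 0, 2 without arrays 3 and 6, and 3 under the block. Of the 18 member probe sets, 1 was called; array weights gave 4 (1369928_at, 1370287_a_at, 1372219_at and 1395794_at), leaving out 1 array 1 to 2, and leaving out aged arrays 3 and 6 together 0 (limma, with 5 at an unadjusted p under 0.05). Tnni1 minus Tnni3 ranged from 0.18 to 0.49 and Tpm2 minus Tpm1 from 0.36 to 0.52 when 1 array was left out. Without aged arrays 3 and 6, Tpm2 minus Tpm1 was 0.29 (adjusted exact permutation p = 0.134) and Tnnt1 minus Tnnt2 0.24 (0.0536, where the unadjusted p was the smallest that 5 arrays against 3 allow, so that the loss of the call follows from the fewer arrays). With limma and the replicate block, Tpm2 minus Tpm1 was 0.34 (adjusted p = 0.148). The cause was not tested, beyond the smaller number of arrays in the omissions and the block.

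Of the settings of single member genes, member probe sets and shared actin probe sets, 517 kept the side of the threshold, 9 newly passed and 35 no longer passed, and none reversed. With each array centred on its median, 1374352_at (adjusted p = 0.0503) and 1385797_at (0.0526) no longer passed, nor did 1385797_at with robust eBayes (0.0659). The replicate numbers do not pair the arrays by the labels. Same-numbered arrays correlated at 0.0349, 0.0484, 0.145 and 0.0444 for numbers 2, 3, 4 and 6, and 1 of the 4 correlated best with its own number. Under the replicate block, Tnnt1 had an adjusted p of 0.158, the shared actin probe sets 1374353_x_at 0.0883, 1374352_at 0.192 and 1385797_at 0.150, and 1395794_at 0.0169. The brightness classes and the log base are inferred, and signal over background was not analysed here.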
